A study of Mus musculus with 24 samples.

Results

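Transcripts of 10 genes of the endoplasmic reticulum (ER) folding machinery and the unfolded protein response were followed in Ku70-/- mouse embryonic fibroblasts (MEFs) that received the oxidizing agent KBrO3, the plastics monomer bisphenol A (BPA), or both. The genes are Hspa5, Hsp90b1, Calr, Pdia3, Pdia4, Dnajb9, Sdf2l1, Creld2, Herpud1 and Xbp1, chosen by name from a list of known pathway genes. They were chosen with earlier results of these data known, as were the further gene lists used below. They make up 10 of the 18434 protein-coding genes with a probe on the array. Between them they have 14 probes of 41174. Each gene is described by its brightest probe, and all 14 probes were well above background and unsaturated on all 24 arrays.

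The cells are an immortalized line that lacks Ku70 (Xrcc6), a subunit of the DNA end-joining machinery, and this deletion is carried by the control cells as well, so no group with intact Ku70 was measured. The first set of 15 arrays holds an untreated control, cells given 20 mM KBrO3 for 1 hr and then fresh medium for 3 or 23 hr (KBrO3-only, 4 and 24 hr), and cells given 150 µM BPA before, during and after the same KBrO3 treatment (co-exposure, 4 and 24 hr). The second set of 9 arrays holds its own untreated control and cells kept in 150 µM BPA, labeled 4 and 24 hr (BPA-only). By the methods these labels leave out an earlier hour in BPA, since they count from when the parallel cells received KBrO3. Each group has 3 arrays, each from RNA of a separate biological replicate. The control of the first set is labeled 4 hr and the control of the second set carries no time, so that at 24 hr the effect of a treatment and of the time in culture cannot be told apart. The sets were scanned and extracted separately and no level is compared between them.

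Fibroblast transcripts were present as the label implies, with 10 of 11 fibroblast markers (Col1a1, Col3a1, Vim and Pdgfrb among them) well above background on all 24 arrays and Thy1 on 19. Markers of other cell types were in part above background too. Of the blood markers Cd68 was so on 24 arrays, Csf1r on 19, Emr1 on 7 and Ptprc on 0. Of the endothelial markers Kdr was so on 24, Cdh5 on 8 and Pecam1 on 0, and of the muscle markers Myod1 on 19, Myog on 13 and Des on 0. Of the epithelial markers Krt18 was so on 20, Krt8 on 14, Cdh1 on 9 and Epcam on 3. The part of such transcripts in the results was not tested. Spots well above background made up 57.66 to 68.07% on arrays of the first set and 76.41 to 79.42% on those of the second. Residual SDs had a median of 0.107 log2 units for the first set against 0.340 for the second, so that differences of a given size are measured less precisely for BPA-only. Arrays lay on 5 slides per set, and arrays of 1 slide resembled each other in the first set with a correlation of 0.634. KBrO3-only and control at 4 hr share a slide, as do co-exposure and KBrO3-only at 24 hr. Co-exposure at 4 hr and at 24 hr are linked through KBrO3-only arrays at 24 hr that lay on slides of both. The other comparisons made within the first set have no such link, and there slide and treatment cannot be told apart. The number of these genes called in each of the comparisons with a control or with KBrO3 in the first set stayed the same with the slide as a random block. Where the groups share no slide, that fit cannot separate slide from treatment, and the unchanged count says nothing on it.

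Proteins that enter the ER are folded there by chaperones, chiefly the Hsp70 protein BiP (encoded by Hspa5) and the Hsp90 protein GRP94 (Hsp90b1), by calreticulin (Calr), which holds glycoproteins by their sugars, and by disulfide isomerases such as ERp57 (Pdia3) and ERp72 (Pdia4). When unfolded proteins accumulate, the sensors IRE1, ATF6 and PERK start the unfolded protein response. IRE1 splices the mRNA of the transcription factor XBP1, ATF6 is cut free to enter the nucleus, and both factors raise chaperone and degradation genes, while PERK slows translation and favors the factor ATF4. Fibroblasts secrete collagen and other matrix proteins and so depend on this machinery.

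Promoters of ER stress genes are known to carry the ER stress response element (ERSE), the letters CCAAT and CCACG with any 9 bases between them, or the shorter ERSE-II, ATTGG and CCACG with any 1 base between them. Both were searched on both strands, together with TGACGTGG, the core of the element bound by XBP1, in the 300 bases from 250 before to 50 after each annotated gene start in the RefSeq annotation of GRCm38.p6. All 10 genes had a promoter in the table. ERSE was found in 4 of the 10 promoters (Hspa5, Hsp90b1, Calr and Creld2), against 39 of all 32851 promoters, or 0.119%. ERSE-II was found in the Herpud1 promoter and in 12 of all promoters, or 0.0365%. TGACGTGG was found in 0 of the 10 and in 222 of all promoters, or 0.676%. ERSE and ERSE-II are known from promoters of such genes, and the 10 were chosen by name as known pathway genes. The shares are therefore a description, and enrichment was not tested. The matches are shown because they separate the genes by promoter letters for the results that follow. They are written 5′ to 3′ on the strand of the gene, with the fixed letters of the element in capitals, and they begin 65, 212, 107, 162, 126 and 52 bases before the start in the order given.
Hspa5 (chr2:34772020-34772048, plus strand): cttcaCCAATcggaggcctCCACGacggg
Hsp90b1, the element farther from the start (chr10:86705633-86705661, minus strand): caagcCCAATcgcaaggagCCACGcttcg
Hsp90b1, the element nearer the start (chr10:86705528-86705556, minus strand): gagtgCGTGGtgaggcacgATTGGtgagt
Calr (chr8:84847070-84847098, minus strand): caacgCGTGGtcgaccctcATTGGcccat
Creld2 (chr15:88819515-88819543, plus strand): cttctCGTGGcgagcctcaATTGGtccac
Herpud1, ERSE-II (chr8:94386372-94386392, plus strand): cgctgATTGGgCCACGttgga
The element reads forward in Hspa5, Herpud1 and the farther site of Hsp90b1 and backward in the other sites. No match in Pdia3, Pdia4, Dnajb9, Sdf2l1 and Xbp1 says only that these letters are not within this window.

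Values below are log2 signals minus the array's 75th percentile, and differences are log2 differences of group means. A gene was called higher or lower when its adjusted p was under 0.05 over all tested probes and the change exceeded 1.5-fold. At 4 hr after the start of KBrO3 alone, 3 of the 10 genes were called higher (Hspa5, Dnajb9 and Xbp1) and 1 lower (Pdia4), where 21.1% of all 14099 genes tested were called higher and 22.8% lower. The median difference of the 10 was 0.07, against 0.02 over all genes. At 24 hr 0 of 10 were higher, against a background of 12.7%, and 6 were lower (Hsp90b1, Calr, Pdia4, Sdf2l1, Herpud1 and Xbp1), against 21.0% of all genes. The median of the 10 was then -0.82 and that of all genes -0.07. After co-exposure, 3 were higher at 4 hr (Hspa5, Dnajb9 and Herpud1) and 2 lower (Pdia4 and Sdf2l1), with 28.1% of all genes higher and 26.5% lower. At 24 hr after co-exposure 0 were higher and 4 lower (Hsp90b1, Pdia3, Pdia4 and Xbp1), with 15.7% of all genes higher and 23.9% lower, and the median of the 10 was -0.27 against -0.06 over all genes. This last count depends on the scaling, since 1 gene was higher (Hspa5) and 1 lower (Pdia4) both with the arrays scaled to their medians and after normexp background correction. These comparisons share their control arrays.

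**Figure D1:**
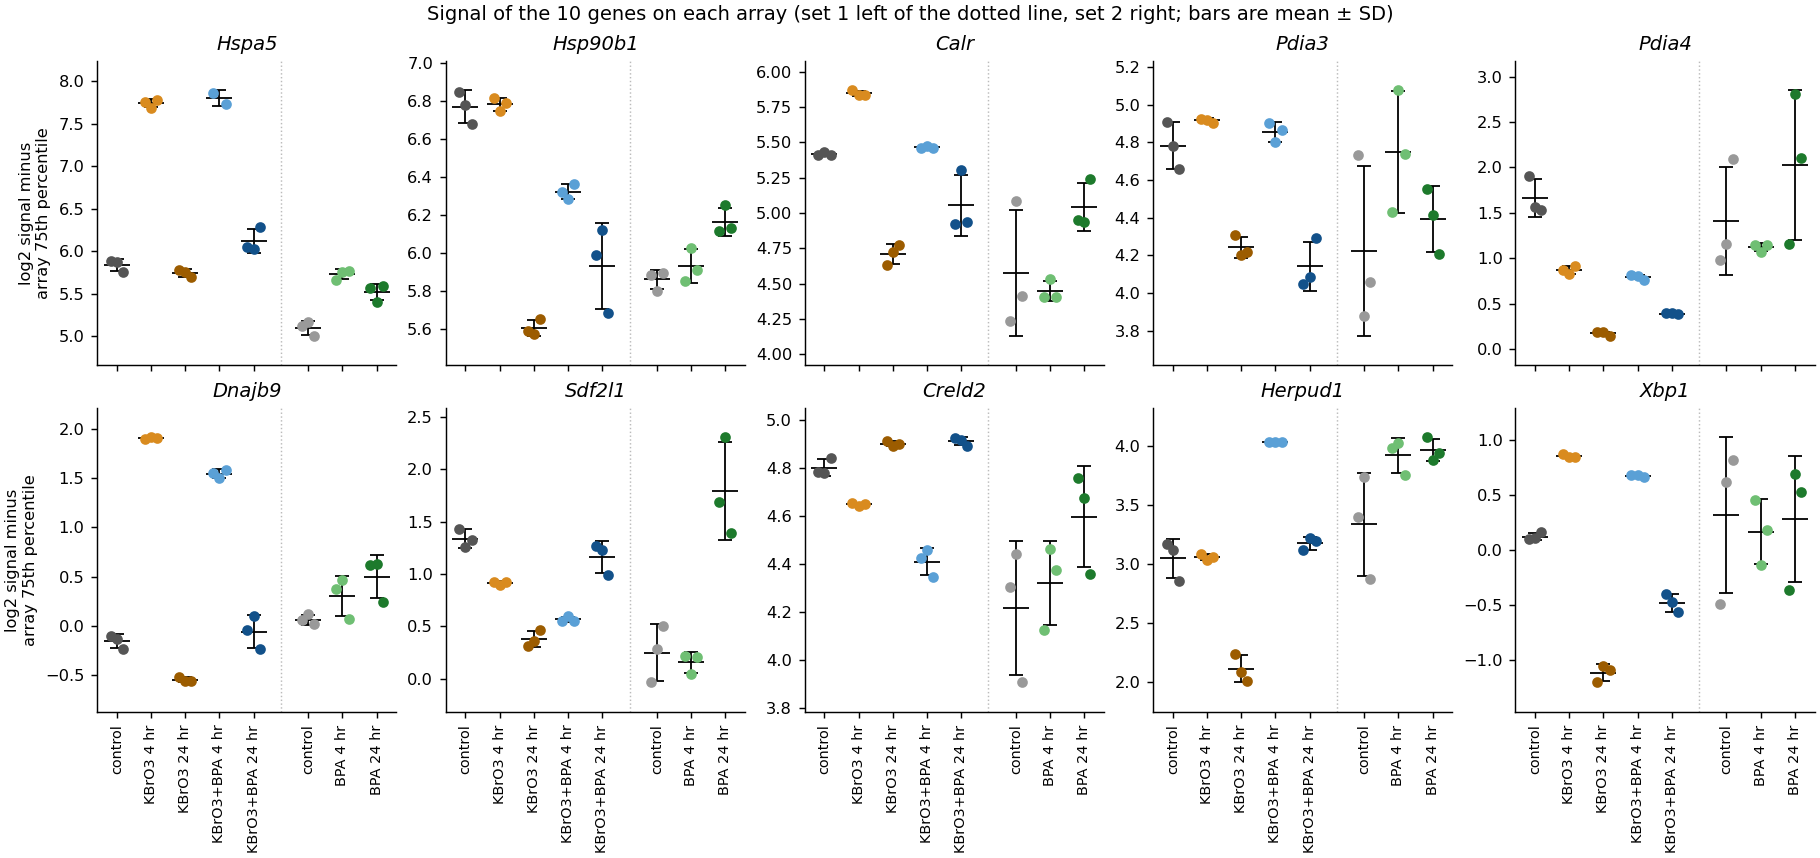
Signal of each of the 10 genes on every array, as log2 signal minus the array's 75th percentile, with the group mean and SD. Points are arrays, groups are on the x axis and the sets are parted by a dotted line. Hspa5, Dnajb9, Xbp1 and Calr stand above the control on every 4 hr array with KBrO3 that has a value (Hspa5 has none for co-exposure replicate 1). For Calr with co-exposure the mean difference is only 0.05. Herpud1 stands above the control in the co-exposed cells alone among the KBrO3-treated groups at 4 hr.

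**Figure D2:**
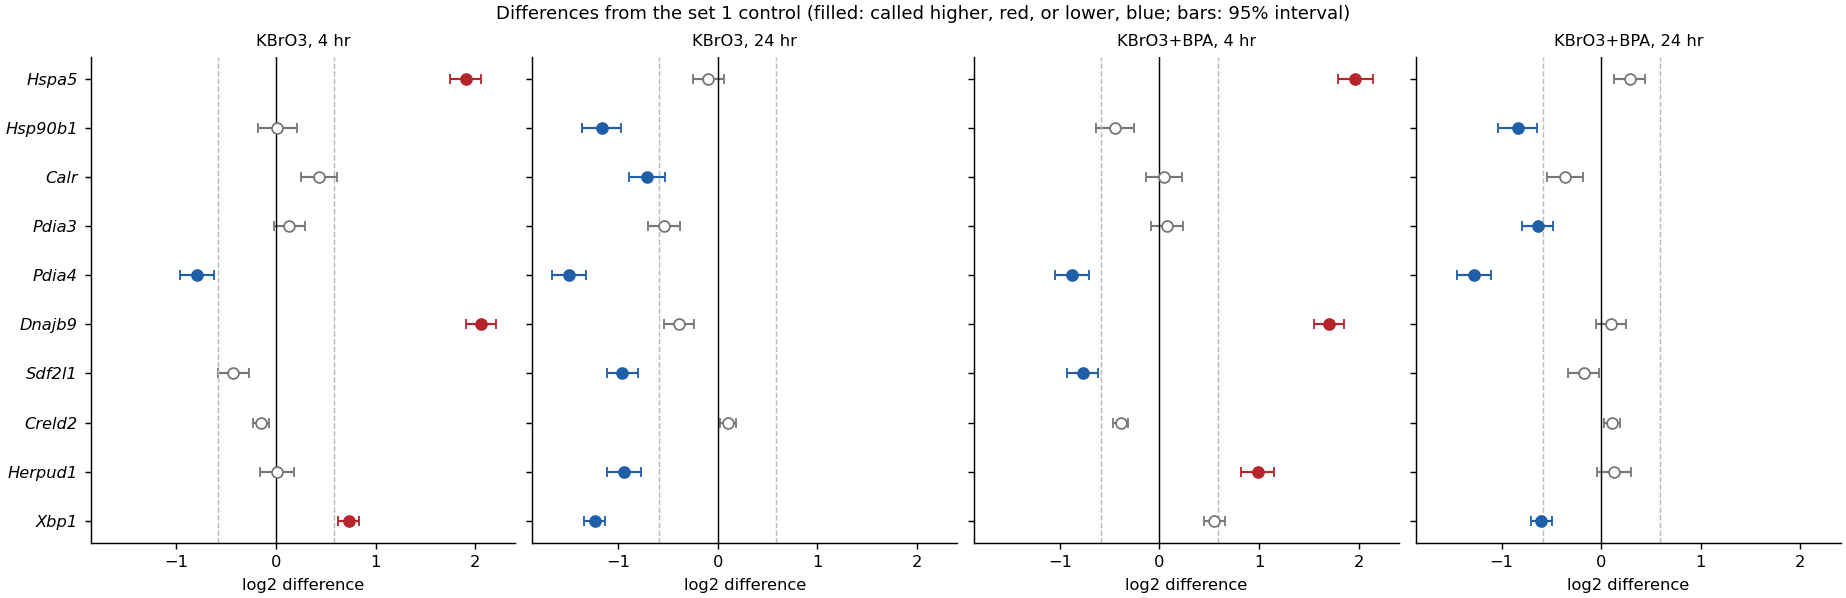
Log2 difference of each gene from the control of the first set with its 95% interval, for KBrO3-only and co-exposure at 4 and 24 hr. Filled points are called, and dashed lines mark the 1.5-fold limits. At 4 hr 3 genes were called higher in each treatment and at 24 hr 0 were.

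Of the Hsp70 and Hsp90 chaperones, BiP's gene moved early and GRP94's late. Hspa5 read 5.89, 5.87 and 5.76 on the control arrays, 7.76, 7.69 and 7.78 after KBrO3 at 4 hr and 5.78, 5.76 and 5.69 at 24 hr. In co-exposed cells it read 7.87 and 7.74 at 4 hr, where the spot on the array of replicate 1 was called an outlier by the scanner software and was left out (n = 2), and 6.05, 6.03 and 6.28 at 24 hr. The 4 hr arrays of both treatments lie far above every control array, and the 24 hr KBrO3-only arrays overlap the controls. The rise at 4 hr was 1.91 ± 0.07 (SE), or 3.75-fold, with KBrO3 alone (adjusted p = 4.97e-10), and 1.97 ± 0.08, or 3.91-fold, with co-exposure (adjusted p = 8.22e-10). Within the slide that held control replicate 3 and the KBrO3-only arrays the difference was 1.99. At 24 hr the difference was -0.09 (95% interval -0.25 to 0.06) with KBrO3 alone and 0.29 with co-exposure, short of the fold limit. The latter was called higher with median scaling (0.60, adjusted p = 8.03e-05) and after normexp correction (0.68, adjusted p = 0.0101).

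Hsp90b1 read 6.85, 6.78 and 6.68 on the control arrays and 6.82, 6.75 and 6.79 after KBrO3 at 4 hr, which overlap. At 24 hr the KBrO3-only arrays read 5.59, 5.57 and 5.65 and the co-exposed arrays 5.99, 6.12 and 5.68, all below every control array. Hsp90b1 fell by 1.17 ± 0.09 on the log2 scale with KBrO3 (2.24-fold, adjusted p = 2.24e-07) and fell by 0.84 ± 0.09 with co-exposure (1.79-fold, adjusted p = 3.61e-06). A dimmer probe of Hsp90b1 gave -0.47 and -0.35 at 24 hr, in the same direction and within the fold limit. With co-exposure at 4 hr the probes disagreed, at -0.45 for the brighter and 0.17 for the dimmer, neither called. The brighter probe was called lower there by quantile normalization (-0.77, adjusted p = 1.19e-06) and by median scaling (-0.59, adjusted p = 0.000625). Both genes carry an ERSE in the promoter, and at 4 hr after KBrO3 alone the difference was 1.91 for Hspa5 and 0.01 for Hsp90b1.

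Calr, whose product works with ERp57 on glycoproteins, read 5.41, 5.44 and 5.41 in the control and 5.87, 5.84 and 5.84 after KBrO3 at 4 hr. At 24 hr after KBrO3 it read 4.63, 4.72 and 4.77. The 4 hr arrays lie above and the 24 hr arrays below every control array. The difference at 4 hr was 0.43 ± 0.08, within the fold limit, while Calr fell by 0.71 ± 0.08 at 24 hr (1.64-fold, adjusted p = 9.16e-06). The dimmer Calr probe was called higher at 4 hr, by 0.64 ± 0.09, and read -0.25 at 24 hr. In co-exposed cells Calr differed from the control by 0.05 at 4 hr and by -0.36 at 24 hr (0.09 by the dimmer probe), and neither was called. The 24 hr call with KBrO3 was lost after normexp correction (-0.34, adjusted p = 0.101), with the arrays scaled to their medians (-0.56) and at a Bonferroni threshold, and normexp correction raised the 4 hr difference to 0.72, which was called.

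Of the disulfide isomerases, Pdia4 was lower in all 4 comparisons with the control and Pdia3 in 1. Pdia4 read 1.91, 1.56 and 1.53 in the control, then 0.87, 0.83 and 0.92 after KBrO3 at 4 hr and 0.18, 0.18 and 0.15 at 24 hr. With co-exposure it read 0.81, 0.80 and 0.76 at 4 hr and 0.39, 0.40 and 0.38 at 24 hr. No treated array reached the lowest control array. Pdia4 fell by 0.80 ± 0.08 (1.74-fold, adjusted p = 1.30e-06) and fell by 1.496 ± 0.08 (2.82-fold, adjusted p = 7.46e-09) with KBrO3 at 4 and 24 hr. The differences with co-exposure were -0.88 ± 0.08 and -1.28 ± 0.08, both called. Within the shared slide the 4 hr difference with KBrO3 was -0.66, and normexp background correction took both 4 hr falls inside the fold limit, to -0.57 and -0.58.
Pdia3 read 4.91, 4.78 and 4.66 in the control and 4.31, 4.20 and 4.22 after KBrO3 at 24 hr. It read 4.05, 4.09 and 4.29 after co-exposure at 24 hr. Both 24 hr groups lie below every control array. The difference was -0.54 with KBrO3, within the fold limit, and Pdia3 fell by 0.64 ± 0.07 with co-exposure (1.56-fold, adjusted p = 6.07e-06). Without control replicate 3 the difference with KBrO3 was called as well (-0.602, adjusted p = 2.54e-05). At 4 hr Pdia3 differed from the control by 0.13 and 0.07.

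The co-chaperones parted ways. Dnajb9 encodes ERdj4, a J-domain partner of BiP that also restrains IRE1. It read -0.10, -0.13 and -0.24 in the control, 1.89, 1.91 and 1.90 after KBrO3 at 4 hr, and 1.55, 1.501 and 1.58 after co-exposure at 4 hr. All 6 treated arrays stand above every control array. The rise of 2.06 ± 0.07 with KBrO3 was the largest change of the 10 genes against the control (4.16-fold, adjusted p = 6.47e-11), and that with co-exposure was 1.70 ± 0.07 (3.25-fold, adjusted p = 2.79e-10). Both dimmer probes of Dnajb9 were called higher at 4 hr too, by 1.76 and 1.48 with KBrO3 and 1.54 and 1.60 with co-exposure. At 24 hr Dnajb9 read -0.52, -0.56 and -0.56 with KBrO3 and -0.04, 0.10 and -0.23 with co-exposure. The former lie below all control arrays without reaching the fold limit (-0.39 ± 0.07), and the latter overlap them (0.10, 95% interval -0.05 to 0.25, with 0.18 and -0.26 by the dimmer probes).

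Sdf2l1, an ER-resident partner of J-domain proteins, read 1.43, 1.26 and 1.32 in the control, 0.92, 0.89 and 0.92 after KBrO3 at 4 hr and 0.31, 0.36 and 0.46 at 24 hr. With co-exposure it read 0.55, 0.59 and 0.55 at 4 hr and 1.27, 1.23 and 0.99 at 24 hr. Thus the KBrO3-only arrays were lowest at 24 hr and the co-exposed arrays at 4 hr. Against the control Sdf2l1 fell by 0.96 ± 0.07 with KBrO3 at 24 hr (1.95-fold, adjusted p = 1.66e-07) and fell by 0.77 ± 0.07 with co-exposure at 4 hr (1.71-fold, adjusted p = 6.23e-07). The latter was -0.58 after normexp correction, just inside the fold limit.
Creld2, an ER-resident protein with EGF-like domains, was called in 0 of these comparisons. Its arrays nonetheless repeated closely, at 4.78, 4.78 and 4.84 in the control, 4.65, 4.64 and 4.65 after KBrO3 at 4 hr, and 4.43, 4.46 and 4.35 after co-exposure at 4 hr. Both treated groups lie below every control array, and the differences were -0.15 ± 0.04 and -0.39 ± 0.04. Normexp correction turned the difference with KBrO3 alone to 0.15. Hspa5, which shares the ERSE, differed by 1.91 and 1.97 in these comparisons.

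Herpud1, a membrane protein of ER-associated degradation, did not follow BiP after KBrO3 alone. It read 3.17, 3.12 and 2.86 in the control and 3.09, 3.03 and 3.06 after KBrO3 at 4 hr, which overlap (0.01, 95% interval -0.16 to 0.18). With co-exposure at 4 hr it read 4.04, 4.04 and 4.03, above every control and every KBrO3-only array, a rise over the control of 0.99 ± 0.08 (1.98-fold, adjusted p = 1.20e-07). At 24 hr it read 2.23, 2.09 and 2.01 with KBrO3 alone, and so fell by 0.94 ± 0.08 (1.92-fold, adjusted p = 3.90e-07). With co-exposure at 24 hr it read 3.12, 3.22 and 3.19, a difference from the control of 0.13 (95% interval -0.04 to 0.30).
Xbp1 was read as a whole transcript, and its splicing was not measured. It read 0.10, 0.11 and 0.16 in the control, 0.87, 0.84 and 0.84 after KBrO3 at 4 hr and -1.20, -1.05 and -1.09 at 24 hr. The first treated group lies wholly above and the second wholly below the control. Xbp1 rose by 0.73 ± 0.05 (1.66-fold, adjusted p = 3.04e-08) and then fell by 1.23 ± 0.05 (2.35-fold, adjusted p = 5.91e-10). With co-exposure the difference at 4 hr was 0.55 ± 0.05, within the fold limit, and Xbp1 fell at 24 hr by 0.60 ± 0.05 (1.52-fold, adjusted p = 2.69e-07). The 24 hr calls of Hsp90b1, Pdia3 and Xbp1 after co-exposure were lost with the arrays scaled to their medians (-0.52, -0.32 and -0.28) or after normexp correction (-0.53, -0.29 and -0.55). Without control replicate 1 the difference of Pdia3 was -0.58, and without control replicate 3 or co-exposure replicate 3 that of Xbp1 was -0.58 and -0.56, in each case inside the fold limit.

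The co-exposed cells were next set against the KBrO3-only cells of the same time, which asks what BPA added. At 4 hr these groups share no slide, so that slide and added BPA cannot be told apart there. At 4 hr 1 of the 10 genes was higher (Herpud1) and 0 were lower, where 10.6% of all genes were called higher and 9.06% lower. At 24 hr 3 were higher (Herpud1, Sdf2l1 and Xbp1) and 0 lower, where 6.55% of all genes were higher and 7.59% lower. The median difference of the 10 was -0.21 at 4 hr and 0.36 at 24 hr, against -0.02 and 0.01 over all genes. Herpud1 was higher by 0.98 ± 0.08 at 4 hr (1.97-fold, adjusted p = 1.15e-06) and by 1.07 ± 0.08 at 24 hr (2.10-fold, adjusted p = 3.98e-07), with the 3 co-exposed arrays above the 3 KBrO3-only arrays each time. Sdf2l1 was higher at 24 hr by 0.79 ± 0.07 (1.72-fold, adjusted p = 2.86e-06) and Xbp1 by 0.63 ± 0.05 (1.55-fold, adjusted p = 6.73e-07), again with no overlap of arrays. Normexp correction took Xbp1 to 0.56, inside the fold limit. Within the slide that held 2 arrays of each group the 24 hr differences were 1.12 for Herpud1, 0.84 for Sdf2l1, 0.63 for Xbp1 and 0.59 for Dnajb9.

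The remaining genes differed by less than the fold limit when BPA was added. At 24 hr, Dnajb9 was higher by 0.49 ± 0.07, Hspa5 by 0.38 ± 0.07, Calr by 0.35 ± 0.08 and Hsp90b1 by 0.33 ± 0.09, all with an adjusted p under 0.05 and none called. Dnajb9 was called with slide as a fixed block (0.59, adjusted p = 1.48e-05) and with median scaling (0.66, adjusted p = 0.000216). At 4 hr Hsp90b1, Calr, Dnajb9 and Sdf2l1 differed by -0.46, -0.38, -0.36 and -0.35. Hsp90b1 was called lower there with median scaling (-0.604, adjusted p = 0.00127). Dimmer probes went the other way for Hsp90b1 (0.10) and for 1 of the pair of Dnajb9 (0.12). Hspa5 differed by 0.06 (95% interval -0.12 to 0.23) at 4 hr and Pdia3 by -0.10 (95% interval -0.26 to 0.06) at 24 hr. The difference with added BPA itself changed between the times for 5 genes, all toward higher at 24 hr (Sdf2l1, Dnajb9, Xbp1, Hsp90b1 and Calr), with 0 toward lower. Of all genes 13.2% changed upward and 13.4% downward. The 4 hr side of this change cannot be told apart from slide. The change was 1.13 ± 0.10 for Sdf2l1 (adjusted p = 4.69e-06), 0.84 ± 0.10 for Dnajb9 (adjusted p = 3.37e-05) and 0.81 ± 0.07 for Xbp1 (adjusted p = 3.17e-06). By dimmer probes the change was 0.02 for Hsp90b1, 0.53 for Calr and 0.60 and 0.19 for Dnajb9, of which the 0.60 was called. The calls of Hsp90b1 and Calr were also lost by quantile normalization (0.499 and 0.45) and after normexp correction (adjusted p = 0.0923 and 0.123). Herpud1, which was higher at both times, changed by 0.09 (95% interval -0.14 to 0.33).

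**Figure D3:**
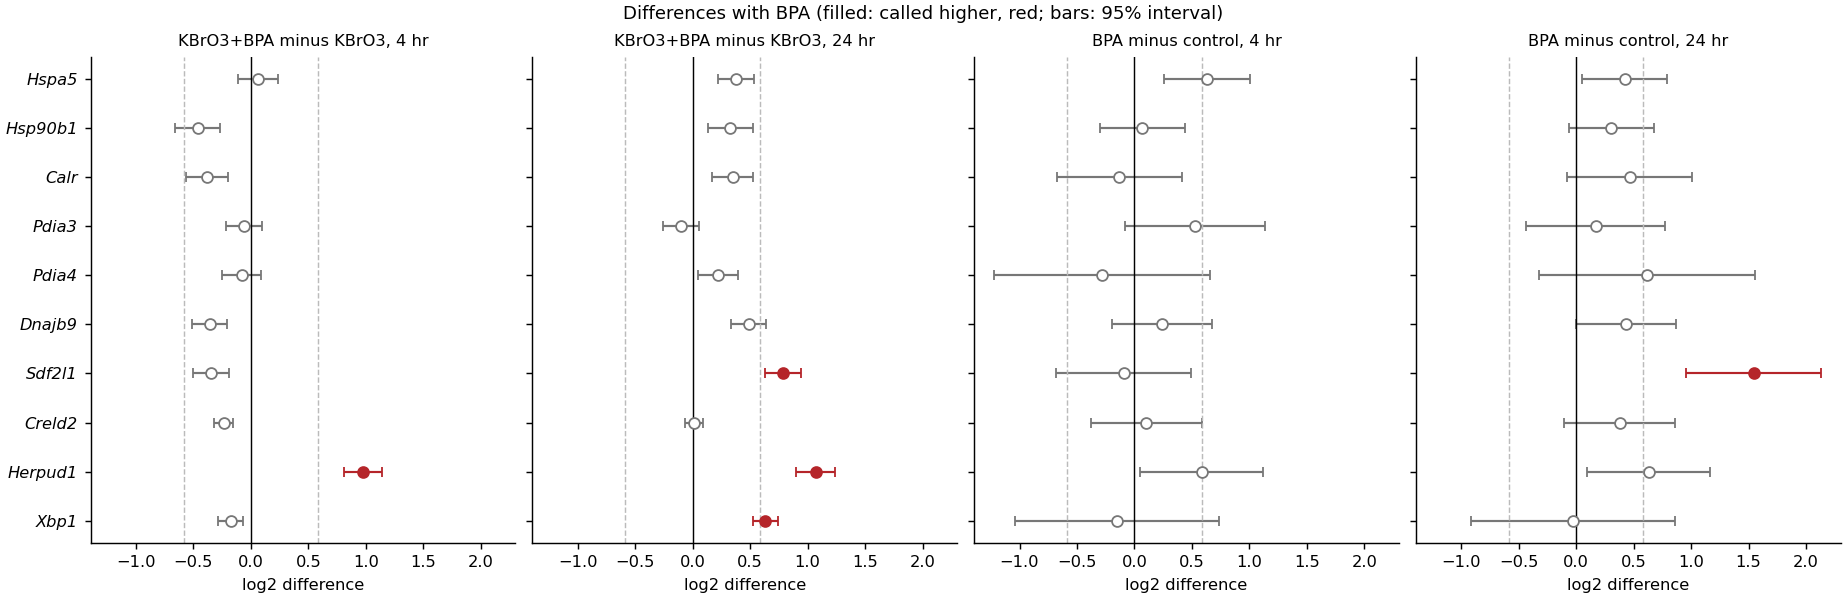
Log2 difference of each gene with its 95% interval for co-exposure minus KBrO3-only and for BPA-only minus its own control, at 4 and 24 hr. Filled red points are called and dashed lines mark the 1.5-fold limits. Herpud1 was called in both co-exposure panels and Sdf2l1 in both 24 hr panels, and the intervals are wider in the BPA-only panels.

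BPA alone gave fewer calls among all genes and among these, in the less precise set (median residual SD 0.340 against 0.107). Fewer calls there need not mean smaller effects. At 4 hr 0 of 10 were called in limma's fit, with 3.01% of all genes higher and 1.67% lower, and 2 had an unadjusted p under 0.05, as did 20.2% of all genes. At 24 hr 1 was higher (Sdf2l1) and 0 lower, with 1.83% of all genes higher and 2.48% lower. The median of the 10 was 0.09 at 4 hr and 0.43 at 24 hr, and that of all genes -0.06 and 0.02. Sdf2l1 read -0.04, 0.28 and 0.50 in the control, 0.21, 0.04 and 0.21 at 4 hr and 1.69, 2.31 and 1.39 at 24 hr. The 24 hr arrays stand above all others, and the difference from the control was 1.55 ± 0.26 (2.92-fold, adjusted p = 0.0154). This call was lost without control replicate 1 (1.40, adjusted p = 0.0589), with slide as a fixed block (1.60, adjusted p = 0.0834) and after normexp correction (1.47, adjusted p = 0.304), and within the slides that held both groups the difference was 1.41 and 1.80. With slide as a fixed block or after normexp correction 0% of all genes were called in this comparison.
Hspa5 read 5.12, 5.16 and 5.005 in the control, 5.66, 5.75 and 5.77 with BPA at 4 hr and 5.56, 5.40 and 5.58 at 24 hr. Its treated arrays lie above all controls, yet the differences of 0.63 ± 0.17 (adjusted p = 0.0697) and 0.42 ± 0.17 (adjusted p = 0.218) did not pass the test. With an intensity trend in limma's fit the 4 hr difference of Hspa5 was called (adjusted p = 0.0216). Herpud1 read 3.40, 3.74 and 2.87 in the control, 3.99, 4.03 and 3.76 at 4 hr and 4.08, 3.89 and 3.94 at 24 hr. These groups do not overlap either, and the differences were 0.59 ± 0.24 (adjusted p = 0.221) and 0.63 ± 0.24 (adjusted p = 0.200). Xbp1 scattered widely in this set, from -0.49 to 0.82 among the controls, and its difference at 24 hr was -0.03 (95% interval -0.92 to 0.86).

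Whether BPA acted differently alone and on top of KBrO3 was tested on all 24 arrays. At 4 hr 0 of 10 genes were called, with 5.79% of all genes higher and 3.72% lower, and at 24 hr 0 of 10, with 1.78% higher and 1.63% lower, by limma. Unadjusted p-values were under 0.05 for 5 genes at 4 hr and 3 at 24 hr, and for 26.9% and 15.4% of all genes. With slide as a random block 2 were called at 4 hr, Dnajb9 (0.69, adjusted p = 0.0380) and Hsp90b1 (0.59, adjusted p = 0.0259), and 1 at 24 hr, Sdf2l1 (0.78, adjusted p = 0.00453), where 8.54% and 11% of all genes were called in either direction. With slide as a fixed block Xbp1 was called at 24 hr (-1.19, adjusted p = 0.00775), with 7.04% of all genes. Error weights called Dnajb9 at 4 hr (0.596, adjusted p = 0.0180) with 15.3% of all genes, and leaving out co-exposure replicate 2 or 3 at 24 hr called it with 10.1% and 10.8%. The fits with a random block or error weights carried no array weights by set, so that each changed both choices at once. Without replicate 1 of the BPA-set control Pdia3 was called at 4 hr (0.84, adjusted p = 0.0373) and Xbp1 at 24 hr (-1.07, adjusted p = 0.0433), with 13.2% and 2.69% of all genes. For Herpud1 the effect of BPA alone minus that of added BPA was -0.39 (95% interval -0.90 to 0.12) at 4 hr and -0.44 (95% interval -0.95 to 0.08) at 24 hr. For Sdf2l1 at 24 hr it was 0.76 (95% interval 0.24 to 1.28, adjusted p = 0.134). The intervals leave room for sizeable differences in either gene.

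The 4 and 24 hr arrays of a treatment were also compared directly, which involves no control. With KBrO3 alone 0 genes were higher and 8 lower at 24 hr, where 19.2% of all genes were higher and 28.6% lower. Dnajb9 fell by 2.45 ± 0.07, Hspa5 fell by 2.001 ± 0.07 and Xbp1 fell by 1.96 ± 0.05, and the exceptions were Sdf2l1 (-0.53, within the fold limit) and Creld2 (0.25). The dimmer Hsp90b1 probe gave -0.54 there, within the fold limit. By quantile normalization the calls of Hsp90b1 (-0.51), Calr (-0.57) and Pdia3 (-0.28) were lost, and by median scaling those of Pdia3 (-0.52) and Pdia4 (-0.55). With co-exposure 1 gene was higher (Sdf2l1, by 0.60 ± 0.07) and 5 lower (Hspa5, Dnajb9, Xbp1, Herpud1 and Pdia3), where 23.4% of all genes were higher and 34.1% lower. The rise of Sdf2l1 there lay at the fold limit and was lost without co-exposure replicate 1 or 2 at 24 hr (0.54 and 0.56), after normexp correction (0.58) and with slide as a block (0.58 fixed and 0.56 random). The fall of Pdia3 there lost its call by quantile normalization (-0.46) and median scaling (-0.25), and that of Herpud1 by median scaling (-0.40). With BPA alone Sdf2l1 was higher at 24 hr by 1.64 ± 0.26 (adjusted p = 0.0109) and 0 genes were lower, where 1.25% of all genes were higher and 3.06% lower. Without replicate 2 or 3 of BPA at 4 hr that rise was 1.58 or 1.67 and no longer passed the test, nor did it after normexp correction (1.56, adjusted p = 0.326) or with slide as a fixed block (1.36, adjusted p = 0.397).

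Beyond these 10, 60 further genes of the same pathway in 6 lists were all tested. After KBrO3 at 4 hr 15 of the 60 were higher and 4 lower, and at 24 hr 6 were higher and 12 lower, with medians of 0.12 and -0.29. The shares of all genes were 21.1% higher and 22.8% lower at 4 hr and 12.7% and 21.0% at 24 hr. When BPA was added to KBrO3, 6 were higher and 4 lower at 4 hr and 7 were higher and 0 lower at 24 hr, beside 10.6% and 9.06% of all genes at 4 hr and 6.55% and 7.59% at 24 hr. The sixth upward call at 4 hr was Derl3, described below. Of the calls upward, 5 at each time were the 5 genes listed as the PERK arm (Atf4, Ddit3, Trib3, Ppp1r15a and Chac1). Their median difference was 1.25 at 4 hr and 1.52 at 24 hr, against -0.21 and 0.36 for the 10 ER genes. The name is that of the list, and the activity of PERK was not measured. With KBrO3 alone 4 of the 5 were higher at 4 hr (median 1.36) and 3 at 24 hr (median 0.63). With BPA alone 4 were higher at each time, beside 3.01% and 1.83% of all genes. Ddit3, the factor CHOP, was higher by 1.25 and 1.52 when BPA was added and by 1.56 and 1.53 with BPA alone. Atf4 was higher by 0.66 and 1.06 when BPA was added and by 1.07 and 1.23 with BPA alone. Chac1, a glutathione-degrading enzyme, rose by 3.44 with co-exposure at 4 hr against the control, and Trib3, a pseudokinase, by 2.95 at 24 hr.

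Of the 9 sensors and transcription factors, 2 were higher and 1 lower after KBrO3 at 4 hr, beside 21.1% and 22.8% of all genes. At 24 hr 2 were higher and 4 lower, beside 12.7% and 21.0%. Ern1, which encodes IRE1, was higher after KBrO3 by 1.15 at 4 hr and 0.63 at 24 hr, and Atf6 was higher by 0.66 at 4 hr. Eif2ak3, which encodes PERK, fell by 0.90 at 24 hr. Creb3l2, a membrane-bound factor of the ATF6 type, fell by 1.53 with KBrO3 and fell by 2.32 with co-exposure at 4 hr. Creb3l1 fell by 1.31 with KBrO3 at 24 hr, and Mbtps1, the protease that cuts ATF6, fell by 1.23 with co-exposure at 4 hr. Eif2ak3, Ern1 and Atf6 were named after their values were seen.

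The counts after KBrO3 at 4 hr in the lists that follow stand beside 21.1% of all genes higher and 22.8% lower, and nothing particular to a list is read from them. Of the 11 other chaperones and cofactors, 3 were higher and 0 lower after KBrO3 at 4 hr, with Dnajc3, the co-chaperone p58IPK, up by 1.12. With co-exposure at 4 hr Manf rose by 0.72 and Sdf2, the relative of Sdf2l1, fell by 0.82. Of 9 oxidoreductases 3 were higher and 0 lower after KBrO3 at 4 hr. Ero1lb and P4hb rose by 0.97 and 0.92 with co-exposure at 4 hr, and Ero1l, an oxidase that recharges disulfide isomerases, by 1.07 at 24 hr. Of 14 degradation genes 3 were higher and 2 lower after KBrO3 at 4 hr, with the ubiquitin-conjugating enzymes Ube2j1 and Ube2g2 up by 1.56 and 1.36. Derl3 was well above background on 3 co-exposed arrays at 4 hr and on 0 control and 0 KBrO3-only arrays at that time. In the first set it passed the filter through the co-exposed group alone, so its calls there, though counted, support nothing. The co-exposed level was at least 1.29-fold that with KBrO3 alone. Of 12 translocation and glycosylation genes 0 were higher and 1 lower with KBrO3 at 4 hr and likewise at 24 hr, where 12.7% of all genes were higher and 21.0% lower. With co-exposure 0 were higher and 1 lower at 4 hr, beside 28.1% and 26.5% of all genes, and 0 were higher and 2 lower at 24 hr, beside 15.7% and 23.9%. Stt3a fell by 0.99 with co-exposure at 24 hr, Spcs2 fell by 0.87 with co-exposure at 4 hr and Sec61b fell by 0.64 with KBrO3 at 24 hr.

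**Figure D4:**
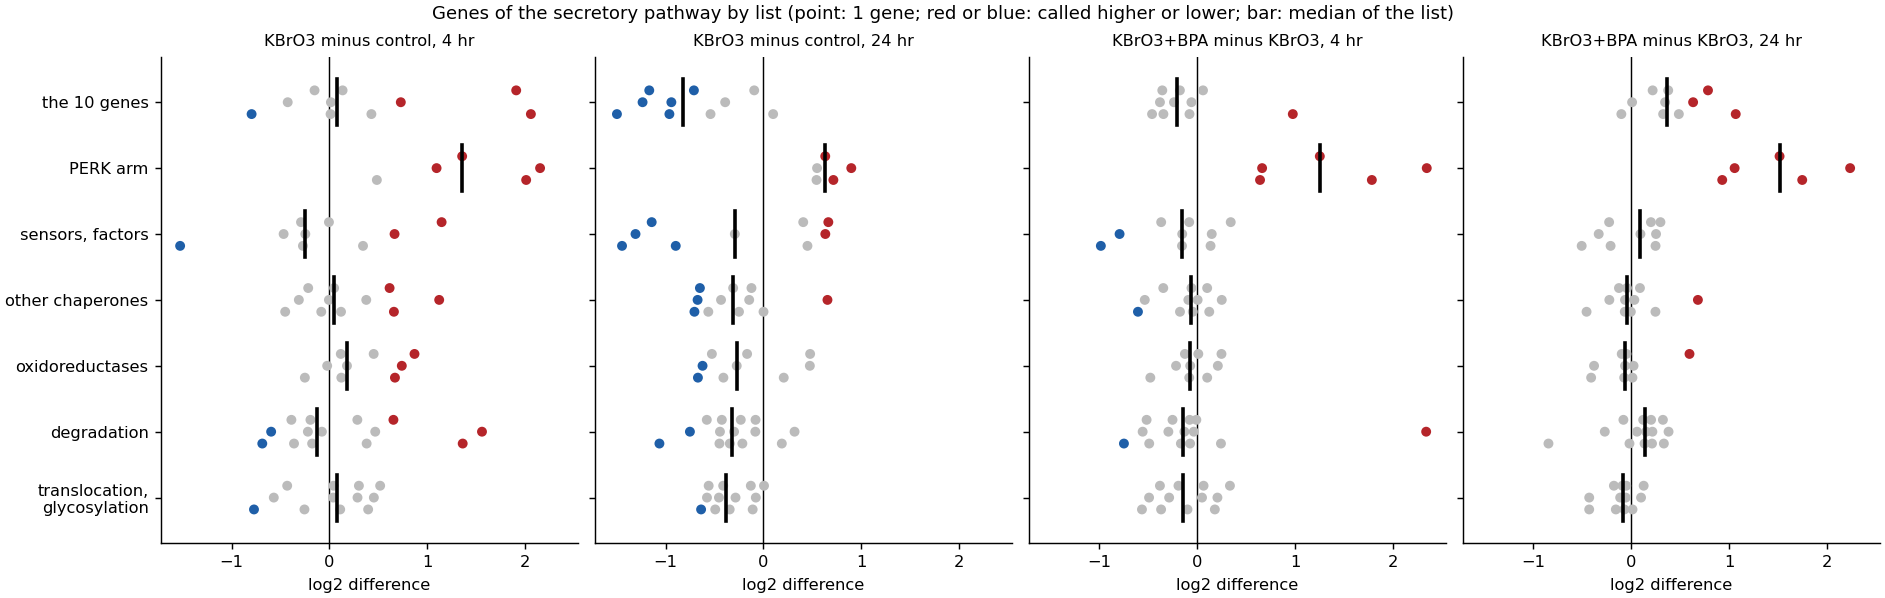
Log2 differences of the 10 genes and of the 60 further pathway genes by list, for KBrO3-only minus control and for co-exposure minus KBrO3-only at 4 and 24 hr. Each point is a gene, red or blue where it was called higher or lower, and the bar is the median of the list. In the co-exposure panels all 5 genes of the list named PERK arm are red, with medians of 1.25 and 1.52. The activity of PERK was not measured. The value of Derl3 at 4 hr rests on a group not above background.

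Across 23 arrays, with values centered on the control of each set, the genes most like Hspa5 of 13924 compared were Dusp10 (Pearson r = 0.986), Ier5 (0.982), Atf3 (0.979), Hmox1 (0.977) and Txnrd1 (0.977). Of the other ER genes Dnajb9 came closest (0.958), followed by Xbp1 (0.660), Calr (0.488) and Herpud1 (0.469). Pdia3 reached 0.344 and Hsp90b1 0.202, and Pdia4 (-0.152), Sdf2l1 (-0.209) and Creld2 (-0.541) ran against it. These values describe arrays that share treatments and slides and carry no test.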

How the data were processed

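Cy3-labeled cRNA made from total RNA was hybridized to Agilent whole mouse genome arrays. What the authors deposited for each spot is its fluorescence intensity as Feature Extraction output (version 9.5.3.1 in the first set and 12.0.0.7 in the second per the file headers, 12.0 per the labels). The software corrects background and spatial trend within an array but does not normalize between arrays. The deposited series table held the same intensity for 1080432 of 1080432 values.

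Signals were log2 transformed, and each array's 75th percentile was subtracted. Outlier spots were dropped and spots of 1 probe averaged. A probe was tested when well above background on all arrays of at least 1 group (27309 probes in the first set, 31810 in the second). Each set was fitted with limma 3.58.1 in R 4.3.3, with two-sided p-values adjusted by Benjamini-Hochberg over all tested probes. BPA alone and added BPA were compared in a fit of all 24 arrays with array weights by set, which its alternatives with a random block or error weights left out. Promoters and gene names come from RefSeq (GRCm38.p6). Of a gene's probes the brightest over 24 arrays was used. Beyond the 10 genes, each list names the up to 3 called genes with the largest change in any comparison, with Atf4 and Ddit3 always. Fits were tested on simulated data with independent noise on each array and no slide effect, so that this test does not bear on slides. The number of arrays limits the precision. Members and lists were chosen with earlier results of these data known. Alternatives changed the normalization, background correction, filters, test, blocks and thresholds and left out each array in turn. For normexp the mean signal was used in the first set and the median signal in the second. Tables were read with Python 3.11.15 and pandas 2.3.3.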

Additional observations from a re-analysis of the deposited data

Results flagged for a closer look

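Differences between times that passed the test are listed here with their log2 values. Between 4 and 24 hr of KBrO3 alone, Hspa5 changed by -2.001, Hsp90b1 by -1.18, Calr by -1.14, Pdia3 by -0.67, Pdia4 by -0.70, Dnajb9 by -2.45, Herpud1 by -0.95 and Xbp1 by -1.96. Between 4 and 24 hr of co-exposure, Hspa5 changed by -1.68, Pdia3 by -0.71, Dnajb9 by -1.60, Herpud1 by -0.86, Xbp1 by -1.15 and Sdf2l1 by 0.60. Between 4 and 24 hr of BPA alone Sdf2l1 changed by 1.64. For the effect of adding BPA to KBrO3, slide and treatment cannot be told apart at 4 hr. This effect was higher at 24 than at 4 hr by 0.79 for Hsp90b1, 0.73 for Calr, 0.84 for Dnajb9, 1.13 for Sdf2l1 and 0.81 for Xbp1. Apart from the rises of Sdf2l1 with co-exposure and with BPA alone, whose values without single arrays stand beside them above, each of these kept its call when any 1 array was left out. Other alternatives did end some calls, with values given above, namely those of Hsp90b1, Calr, Pdia3 and Pdia4 with KBrO3, of Pdia3, Herpud1 and Sdf2l1 with co-exposure, of Sdf2l1 with BPA alone, and of Hsp90b1 and Calr for the added effect. Further calls were gained. Creld2 rose from 4 to 24 hr by quantile normalization with KBrO3 (0.69) and with co-exposure (0.72), and by median scaling with co-exposure (0.96). Sdf2l1 with KBrO3 was called at -0.60 with slide as a random block. For the added effect Hspa5 (0.62) and Pdia4 (0.61) were called with median scaling.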

How the results depend on the processing

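Of 80 differences of the 10 genes in the 8 comparisons with a control or with KBrO3, 24 were called and 15 of these kept their call under every alternative that could be fitted to them. Slide as a fixed block could be fitted for 5 of the 15 (Hspa5, Dnajb9 and Xbp1 with KBrO3 at 4 hr, Herpud1 and Sdf2l1 with added BPA at 24 hr) and not for the other 10, Herpud1 with added BPA at 4 hr and Xbp1 with KBrO3 at 24 hr among them. No called value changed sign. The number of genes called moved by 1.5 times or more as follows. Without a fold limit it was 7 with KBrO3 at 4 hr and 9 at 24 hr, 8 with co-exposure at 4 hr, 8 at 24 hr, 7 for added BPA at 4 hr and 8 at 24 hr, where 72.7%, 69.4%, 80.4%, 72.5%, 60.8% and 50.4% of all genes passed. With normexp correction it was 3 for co-exposure at 4 hr, 2 at 24 hr, 0 for BPA alone at 24 hr, 2 for added BPA at 24 hr, 0 for the change of BPA alone over time and 3 for the change of the added effect over time, where 43.9%, 51.6%, 0%, 7.58%, 0% and 9.44% of all genes were called. With median scaling it was 2 for co-exposure at 24 hr and 2 for added BPA at 4 hr, where Hsp90b1 passed as well (45.9% and 22.9% of all genes). With the methods' thresholds (Bonferroni p below 0.01) it was 2 for co-exposure and 0 for BPA alone at 24 hr (23.8% and 0.0318% of all genes), and Pdia4 with KBrO3 at 4 hr and Calr at 24 hr lost their calls. An intensity trend gave 1 for BPA alone at 4 hr (Hspa5, with 5.88% of all genes), and the 6 arrays compared, fitted alone, gave 0 for BPA alone at 24 hr (1.1% of all genes). Slide as a fixed block gave 0 for BPA alone at 24 hr and for its change over time, as it did over all genes, and quantile normalization gave 3 for the change of the added effect (26% of all genes). For BPA alone against added BPA, error weights gave 1 at 4 hr, slide as a random block 2 at 4 hr and 1 at 24 hr, and slide as a fixed block 1 at 24 hr. The cause was not tested in any of these.

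Leaving out 1 array gave 4 to 4 genes with KBrO3 at 4 hr, 6 to 7 at 24 hr, 5 to 5 with co-exposure at 4 hr, 3 to 4 at 24 hr, 0 to 0 with BPA alone at 4 hr, 0 to 1 at 24 hr, 1 to 1 for added BPA at 4 hr and 3 to 3 at 24 hr. For changes from 4 to 24 hr it gave 8 to 8 with KBrO3, 5 to 6 with co-exposure, 0 to 1 with BPA alone and 5 to 5 for the added effect. For BPA alone against added BPA it gave 0 to 1 at each time, with 1 gene called at either time without BPA-set control replicate 1 and 1 at 4 hr without co-exposure replicate 2 or 3 at 24 hr.

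None of the values that turned sign was called before or after. Quantile normalization turned, at 4 hr with KBrO3, Hsp90b1 to -0.42, Calr to -0.025, Pdia3 to -0.13 and Herpud1 to -0.22. It turned Hspa5 with KBrO3 at 24 hr to 0.15, and with co-exposure at 4 hr Calr to -0.24 and Pdia3 to -0.15. It turned Hsp90b1 to -0.071 and Creld2 to -0.028 with BPA at 4 hr, Pdia3 to -0.016 with BPA at 24 hr and Creld2 to -0.12 for added BPA at 24 hr. Median scaling shifted all values by 0.149 with KBrO3 at 24 hr, -0.13 and 0.318 with co-exposure at 4 and 24 hr, 0.108 with BPA at 24 hr, and -0.13 and 0.169 for added BPA. It turned Hspa5 to 0.055 with KBrO3 at 24 hr, Calr to -0.095 and Pdia3 to -0.068 with co-exposure at 4 hr, Sdf2l1 to 0.14 at 24 hr, Xbp1 to 0.077 with BPA at 24 hr, and for added BPA Hspa5 to -0.070 at 4 hr and Pdia3 to 0.069 at 24 hr. It also turned the changes over time with co-exposure of Hsp90b1 to 0.069, Calr to 0.051 and Pdia4 to 0.059, and the change of the added effect of Pdia3 to 0.27 (0.010 with slide as a random block). Normexp correction turned Creld2 with KBrO3 at 4 hr to 0.15, Hspa5 at 24 hr to 0.28, Sdf2l1 with co-exposure at 24 hr to 0.0026 and Creld2 for added BPA at 24 hr to -0.0058. Slide as a fixed block turned, with BPA at 4 hr, Hsp90b1 to -0.0043, Calr to 0.17, Pdia3 to -0.15, Pdia4 to 0.17, Sdf2l1 to 0.25, Xbp1 to 0.81 and Creld2 to -0.052. Keeping outlier spots turned Hspa5 for added BPA at 4 hr to -0.015.

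Without single arrays the ranges were -0.031 to 0.055 for Hsp90b1 and -0.084 to 0.072 for Herpud1 with KBrO3 at 4 hr. With BPA at 4 hr they were -0.30 to 0.12 for Calr, -0.50 to 0.054 for Pdia4, -0.24 to 0.032 for Sdf2l1, -0.55 to 0.10 for Xbp1 and -0.052 to 0.22 for Creld2. With BPA at 24 hr they were -0.0028 to 0.42 for Pdia3 and -0.44 to 0.29 for Xbp1. For added BPA at 4 hr the range was -0.0050 to 0.12 for Hspa5, and for the change of the added effect it was -0.12 to 0.0070 for Pdia3. The replicate numbers were not taken to pair samples. Residuals of same-numbered arrays correlated with a mean of -0.029 over 30 pairs in the first set (-0.212 to 0.106) and 0.0020 over 9 pairs in the second (-0.384 to 0.648), so that not every pair was above 0. With a replicate block the counts stayed at 4, 6, 5 and 4 in the comparisons with the control of the first set, 0 and 1 with BPA alone and 1 and 3 for added BPA.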
